A study of Arabidopsis thaliana with 22 samples.

Results

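The genes described here are LHCB4.1, LHCB4.2 and LHCB4.3 of Arabidopsis thaliana, the 3 copies that encode 1 antenna protein of photosystem II. They were chosen by name: a gene counted as a member where the platform annotation gives a probe set to that gene alone. All 3 had 1 such probe set, out of 13350 genes named in this way and 22746 probe sets without controls, and none of the 3 shares a probe set with another gene. All came from leaves of Col-0 plants at growth stage 3.90, kept in 12 h of light and 12 h of dark, with no mutant and no treatment besides the hour of harvest. Leaves were taken at 0, 1, 2, 4, 8, 12, 13, 14, 16, 20 and 24 h, with 2 biological replicates per hour and 20 plants pooled for each, which gave 22 Affymetrix ATH1 arrays. The labels do not state in words which hours were light, so hours are given as labelled. The series 1 titles carry numbers: 21 at 0 h, 1 at 4 h, 8 and then 45 at 12 h, and 21 at 24 h. Read as clock times, these would put 0 h in the evening and 12 h in the morning, but the labels do not say what they are.

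LHCB4, also called CP29, is one of the minor antenna proteins of plants. It binds chlorophyll and xanthophylls as a monomer and sits between the core of photosystem II and the trimeric light-harvesting complexes, passing absorbed energy inwards and taking part in the safe loss of excess energy. Transcripts of nuclear antenna genes are known to respond to light and to follow the circadian clock. LHCB4.1 and LHCB4.2 encode closely similar proteins, and LHCB4.3, also named LHCB8, encodes a form that lacks part of the C-terminal region.

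In TAIR10.1 coordinates, LHCB4.1 (AT5G01530, probe set 251082_at) lies on chromosome 5 from 208866 to 210548. LHCB4.2 (AT3G08940, probe set 258993_at) lies on chromosome 3 from 2717557 to 2718923, and LHCB4.3 (AT2G40100, probe set 265722_at) on chromosome 2 from 16745628 to 16747424. The copies thus stand on 3 chromosomes and are not neighbours.

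The measured quantity was the intensity of each probe set in arbitrary units, as the authors scaled it. The array medians ran from 37.6 to 44.7, and the 2 arrays of an hour correlated across probe sets with r from 0.941 to 0.965 (genes are no replicates of each other). The 27 bacterial control probe sets ranged from 0.1 to 29.2, far below every LHCB4 value. Of the cell type markers, RCA (rubisco activase, a leaf gene) ranged from 2648 to 5108, and PYK10, a root beta-glucosidase, from 7.8 to 19.6, inside the range of the bacterial controls. The other 12 of 14 listed markers had no probe set named for them alone. In whole leaves, fewer cells of a type and less RNA per cell cannot be told apart. The ratio of 3 prime to 5 prime actin signal, a sign of RNA quality, differed between the replicate series: it ran from 2.35 to 6.31 in series 2 (median 2.73, n = 11) and from 1.56 to 2.52 in series 1 (median 1.75, n = 11).

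All 3 probe sets were bright on every array. LHCB4.1 had a lowest intensity of 2532.3, a median of 3666 and a highest of 6416.8 over the 22 arrays, and its rank among the 22746 probe sets ran from 2 to 56. LHCB4.2 had a lowest intensity of 694.1, a median of 1879 and a highest of 4180.0, with ranks from 45 to 878. LHCB4.3 had a lowest intensity of 885.8, a median of 1467 and a highest of 2116.6, with ranks from 129 to 653. Probe sets differ in how well they bind, so these intensities do not order the 3 copies by amount of mRNA, and the comparisons that follow concern change over the hours. The spread did differ: the highest array stood 6.02-fold over the lowest for LHCB4.2, 2.53-fold for LHCB4.1 and 2.39-fold for LHCB4.3.

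LHCB4.2 was the copy with the wide daily swing. In replicate series 1 its intensity was 1455.4 at 0 h, 1086.8 at 1 h, 818.0 at 2 h, 694.1 at 4 h, 1776.4 at 8 h and 3166.8 at 12 h, then 3150.0 at 13 h, 3041.0 at 14 h, 4180.0 at 16 h, 4072.2 at 20 h and 1798.3 at 24 h. In replicate series 2 it was 1485.8 at 0 h, 1298.0 at 1 h, 940.8 at 2 h, 696.1 at 4 h, 1959.8 at 8 h and 3632.2 at 12 h, then 2503.0 at 13 h, 3156.4 at 14 h, 3076.8 at 16 h, 2685.1 at 20 h and 1258.3 at 24 h. In both series the values were lower at each hour up to 4 h, higher at 8 h and again at 12 h, high through 20 h and low at 24 h. The 10 arrays from 12 to 20 h lay between 2503.0 and 4180.0, and the other 12 arrays between 694.1 and 1959.8, with no overlap; these hours were grouped after the values were seen, so this is a description. The step between 4 and 8 h measured 1.35 on the log2 scale in series 1 and 1.49 in series 2, and the step between 20 and 24 h measured -1.18 and -1.09.

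LHCB4.1 moved less, and its 2 series parted in scaled intensity late in the cycle. In series 1 its intensity was 4660.0 at 0 h, 2883.8 at 1 h, 3191.9 at 2 h, 3184.7 at 4 h, 3554.7 at 8 h and 4325.7 at 12 h, then 4384.3 at 13 h, 4293.4 at 14 h, 5703.4 at 16 h, 6416.8 at 20 h and 4309.3 at 24 h. In series 2 it was 3631.8 at 0 h, 3071.2 at 1 h, 2532.3 at 2 h, 2942.3 at 4 h, 3685.8 at 8 h and 4643.5 at 12 h, then 3676.8 at 13 h, 4078.0 at 14 h, 3618.9 at 16 h, 3655.3 at 20 h and 3165.3 at 24 h. In intensity both series were lowest at 1 or 2 h, but series 1 was highest at 20 h and series 2 at 12 h. By rank on the array both stood best at 20 h, at 2 in series 1 and 7 in series 2. At 12 h the ranks were 23 and 13. The fall in series 1 from 0 to 1 h took its rank only from 13 to 14. Quantile normalization moved the log2 difference of 1 h against 0 h from -0.47 to -0.01, and neither passed (limma). The arrays from 12 to 20 h lay between 3618.9 and 6416.8 and the other arrays between 2532.3 and 4660.0, so these ranges overlapped.

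LHCB4.3 had its highest hour means at 2, 4 and 8 h and its lowest at 12 and 20 h, and its mean at 14 h was level with those at 0 and 1 h. In series 1 its intensity was 1207.7 at 0 h, 1378.3 at 1 h, 1570.3 at 2 h, 1619.4 at 4 h, 1419.1 at 8 h and 979.9 at 12 h, then 1144.3 at 13 h, 1499.5 at 14 h, 1174.4 at 16 h, 885.8 at 20 h and 1214.8 at 24 h. In series 2 it was 1836.7 at 0 h, 1671.9 at 1 h, 2000.9 at 2 h, 1989.4 at 4 h, 2116.6 at 8 h and 1433.6 at 12 h, then 1377.7 at 13 h, 1549.9 at 14 h, 1558.9 at 16 h, 1341.1 at 20 h and 1654.0 at 24 h. Both series had their lowest value at 20 h, and their highest at 4 h in series 1 and at 8 h in series 2. The arrays from 12 to 20 h, between 885.8 and 1558.9, overlapped the others, between 1207.7 and 2116.6.

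**Figure D1:**
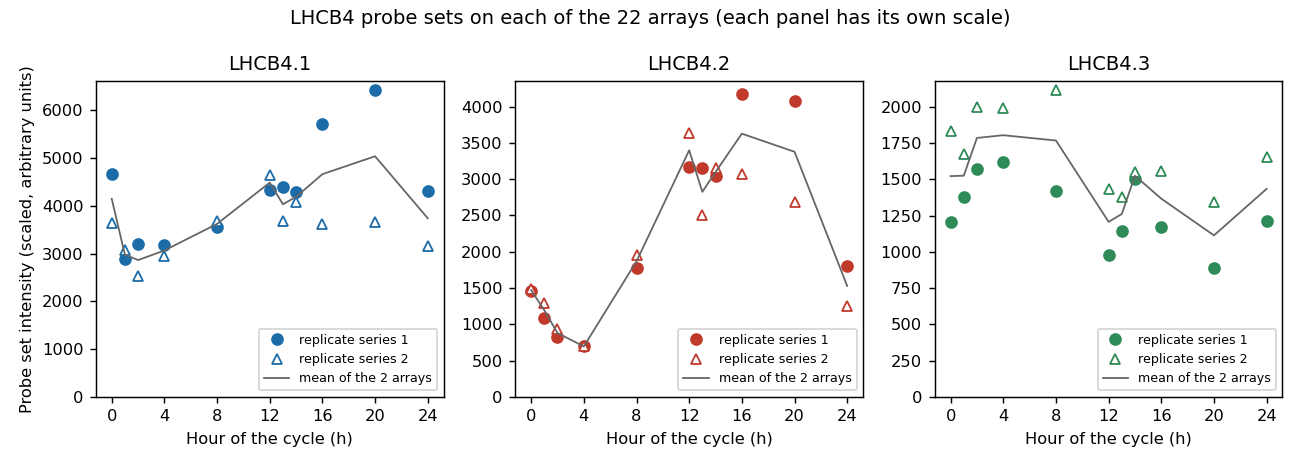
Intensity of each LHCB4 probe set (arbitrary units, y axes from 0 and of different length) against the hour of the cycle, with filled circles for replicate series 1, open triangles for series 2 and a line through the mean of the 2 arrays of each hour. LHCB4.2 stands at 694.1 and 696.1 at 4 h and between 2503.0 and 4180.0 from 12 to 20 h, LHCB4.1 varies less with series 1 far above series 2 at 16 and 20 h, and LHCB4.3 is lowest at 20 h in both series.

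Ordered by hour means, LHCB4.2 had its top at 16 h (3628 ± 780) and its bottom at 4 h (695 ± 1.4; SD, n = 2 each), a 5.22-fold span. Going down this order, the 2 arrays of neighbouring hours were apart at 4 of 10 places: between 13 and 8 h, and from 0 to 1, 1 to 2 and 2 to 4 h. The high hours, 16, 12, 20, 14 and 13 h, each overlapped with the next. LHCB4.1 had its top at 20 h (5036 ± 1953) and its bottom at 2 h (2862 ± 466; SD, n = 2 each), a 1.76-fold span, with arrays apart at 2 of 10 places, between 12 and 14 h and between 8 and 4 h. LHCB4.3 had its top at 4 h (1804 ± 262) and its bottom at 20 h (1113 ± 322; SD, n = 2 each), a 1.62-fold span, and every hour overlapped with the next in its order.

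Whether a copy changed over the cycle at all was asked with limma's moderated F test over the 11 hour means of log2(intensity + 4.01), with Benjamini-Hochberg adjustment over the 13648 brightest probe sets. The threshold was an adjusted p of 0.05, and 26.8% of those tested passed. LHCB4.2 passed, with a log2 range of its hour means of 2.36 (adjusted p = 1.91e-06), and 5.28% of the probe sets tested had a larger range. LHCB4.1 had a range of 0.77 (adjusted p = 0.189) and LHCB4.3 of 0.72 (adjusted p = 0.420), both near the median of 0.78 over all probe sets tested. These 2 ranges were alike under the deposited scaling only. Quantile normalization gave 0.41 for LHCB4.1, 0.84 for LHCB4.3 and 2.22 for LHCB4.2, and only LHCB4.2 passed. With the replicate number as a block, LHCB4.1 reached an adjusted p of 0.0315 and LHCB4.3 of 0.00473, so both passed in the paired fit. LHCB4.1 also passed when the 20 h array of series 2 alone was left out, with a range of 1.17 (adjusted p = 0.0396).

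The replicate series also differed from each other. Over the 11 hours, series 2 minus series 1 was above 0 at all 11 hours for LHCB4.3, between 0.05 at 14 h and 0.60 at 0 h (median 0.41, log2). For LHCB4.1 it was below 0 at 8 hours, between -0.81 at 20 h and 0.10 at 12 h (median -0.25). For LHCB4.2 it was above 0 at 7 hours, between -0.60 at 20 h and 0.26 at 1 h (median 0.03). The median gap of 0.41 for LHCB4.3 stood beside a daily range of 0.72, and that of 0.03 for LHCB4.2 beside a range of 2.36. Series 2 is also the one with the higher actin ratios given above; their part in these gaps was not tested.

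**Figure D2:**
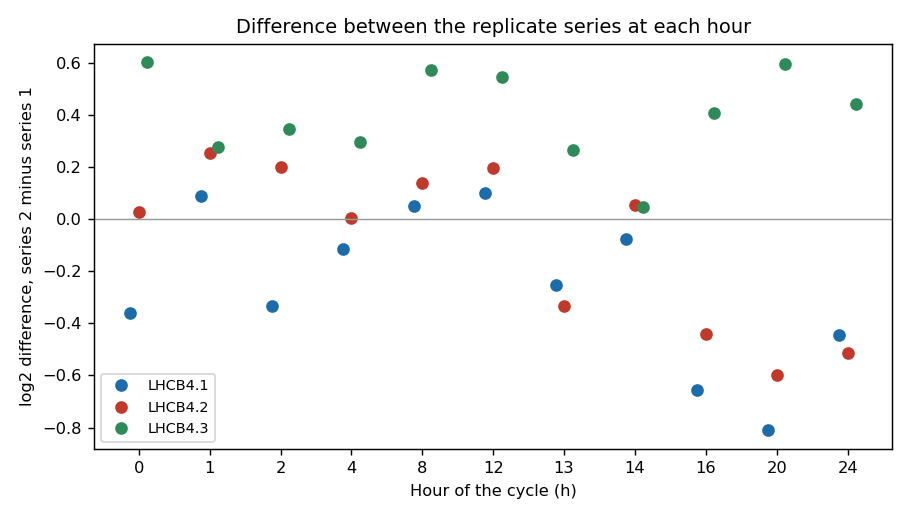
Difference between the replicate series (log2, series 2 minus series 1, y axis) at each of the 11 hours (x axis, not to scale in time), with 1 point per LHCB4 gene. LHCB4.3 lies above 0 at all 11 hours, LHCB4.1 below 0 at 8, and at 20 h the difference is -0.81 for LHCB4.1 and -0.60 for LHCB4.2.

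Between 13 to 24 h and 1 to 12 h, called the later and the earlier part of the cycle here, LHCB4.2 and LHCB4.1 were higher in the later part by the test, and LHCB4.3 had a lower mean that did not pass. LHCB4.2 had a lowest intensity of 1258.3, a median of 3059 and a highest of 4180.0 on the 10 arrays from 13 to 24 h, against 694.1, 1192 and 3632.2 on the 10 arrays from 1 to 12 h. Its later part was higher by 1.01 ± 0.096 on the log2 scale (SE; adjusted p = 1.98e-06, limma), by 1.28 within series 1 and 0.75 within series 2. The ranges overlapped because the 12 h arrays were high and the 24 h arrays low.

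LHCB4.1 had a lowest intensity of 3165.3, a median of 4186 and a highest of 6416.8 from 13 to 24 h, against 2532.3, 3188 and 4643.5 from 1 to 12 h. The difference of 0.34 ± 0.11 (log2, SE) passed narrowly (adjusted p = 0.0378, limma), with 0.54 in series 1 and 0.14 in series 2. This call was not firm: it was lost on leaving out any 1 of 15 of the 22 arrays, and the difference lay between 0.26 and 0.42 over all 22 omissions. The call was kept without either 0 h array, without the 2 h array of series 1, and without the 13, 16, 20 or 24 h array of series 2. Quantile normalization gave 0.15 (adjusted p = 0.0304).

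LHCB4.3 had a lowest intensity of 885.8, a median of 1359 and a highest of 1654.0 from 13 to 24 h, against 979.9, 1595 and 2116.6 from 1 to 12 h. Its difference of -0.26 ± 0.13 (log2, SE) did not pass (adjusted p = 0.149, limma), while the paired fit with the replicate block gave an adjusted p of 0.00405. It was -0.23 in series 1 and -0.29 in series 2. Of all probe sets tested, 24.0% passed this comparison, 10.8% as higher and 13.1% as lower from 13 to 24 h, and the median difference was -0.006. The actin ratio had a median of 2.21 on the arrays from 13 to 24 h and 2.37 on those from 1 to 12 h, a far smaller gap than between the series.

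Against 0 h, LHCB4.2 was the copy that passed, at 4 and at 12 h. At 4 h its 694.1 and 696.1 stood against 1455.4 and 1485.8 at 0 h, a log2 difference of -1.08 ± 0.22 (SE, n = 2 each; adjusted p = 0.0238, limma). At 12 h its 3166.8 and 3632.2 gave 1.203 ± 0.22 (SE; adjusted p = 0.00117, limma) against the same 0 h arrays. The groups did not overlap at either hour. The 4 h call was lost without any single array of 4 h or 0 h, with the difference between -1.09 and -1.06, where 1 array was left at that hour. At 2 h the difference was -0.74 (adjusted p = 0.118) and at 8 h 0.34 (adjusted p = 0.473, limma). Neither LHCB4.1 nor LHCB4.3 passed at any of the 5 hours. Of all probe sets tested, 1.71% passed at 1 h, 1.18% at 2 h, 1.39% at 4 h, 5.39% at 8 h and 15.8% at 12 h.

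Against 12 h, the one difference that passed was the low LHCB4.2 at 24 h. Its 1798.3 and 1258.3 at 24 h stood against 3166.8 and 3632.2 at 12 h, a difference of -1.17 ± 0.22 (log2, SE, n = 2 each; adjusted p = 0.00149, limma). Without the 3 arrays of highest actin ratio, which include the series 2 arrays of both hours, it was -0.82 (adjusted p = 0.141). Of all probe sets, 5.77% passed at 13 h, 8.86% at 14 h, 10.1% at 16 h, 15.9% at 20 h and 15.7% at 24 h against 12 h. LHCB4.2 was thus among the minority called at 24 h, and was not called at 13, 14, 16 or 20 h.

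Values at 24 h and 0 h, the same point of the cycle a day apart, gave no difference that passed for any copy. LHCB4.1 had 4309.3 and 3165.3 at 24 h, against 4660.0 and 3631.8 at 0 h, a log2 difference of -0.16 ± 0.25 (SE). For LHCB4.2 the difference was 0.03 ± 0.22 and for LHCB4.3 -0.07 ± 0.28. None of the 13648 probe sets passed (0.0%) in limma, and 366 had an unadjusted p under 0.05.

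Phase and range were read from a 24 h cosine curve fitted to the 22 arrays. The range is the distance from trough to peak on the log2 scale, and 35.8% of the probe sets tested passed the F test of the wave, with a median wave of 0.82 among those. The wave of LHCB4.2 measured 2.08 ± 0.20 and peaked at 16.0 ± 0.39 h (SE; adjusted p = 3.70e-08, limma). That of LHCB4.1 measured 0.64 ± 0.17 and peaked at 16.8 ± 0.89 h (SE; adjusted p = 0.00798, limma). That of LHCB4.3 measured 0.59 ± 0.20 and peaked at 5.61 ± 0.98 h (SE), at the edge of the threshold (adjusted p = 0.0497, limma; 0.00303 with the replicate block). The SE of a peak hour holds for this single cosine only. With 2 harmonics the peak came at 19.6 h for LHCB4.1, 19.1 h for LHCB4.2 and 4.42 h for LHCB4.3.

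A larger wave than that of LHCB4.2 was seen in 2.80% of the probe sets tested, against 30.9% for LHCB4.1 and 35.1% for LHCB4.3. Peaks within 2 h were common: of the 4887 probe sets with a wave, 13.5% peaked that near to LHCB4.2, 13.0% to LHCB4.1 and 15.9% to LHCB4.3. Quantile normalization gave LHCB4.1 a wave of 0.35 (adjusted p = 0.00137, limma). The call for LHCB4.3 was lost on leaving out any 1 of 14 of the 22 arrays, and the wave lay between 0.44 and 0.69 over all 22 omissions. It was kept without the 0, 1, 8, 12, 14 or 24 h array of series 1 and without the 14 or 16 h array of series 2.

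Fitted alone, each replicate series put LHCB4.3 early and both other copies late. The peak of LHCB4.2 came at 16.4 h in series 1 and 15.4 h in series 2, and that of LHCB4.3 at 5.91 and 5.31 h. LHCB4.1 peaked at 17.9 h in series 1 and 14.1 h in series 2, after LHCB4.2 in one series and before it in the other. Its wave measured 1.00 in series 1 and 0.43 in series 2, whereas those of LHCB4.3 were 0.59 in both and those of LHCB4.2 were 2.38 and 1.82. The peak hour of LHCB4.3 minus that of LHCB4.2 was -10.5 h in series 1 and -10.1 h in series 2, and minus that of LHCB4.1 it was -11.98 and -8.78 h.

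**Figure D3:**
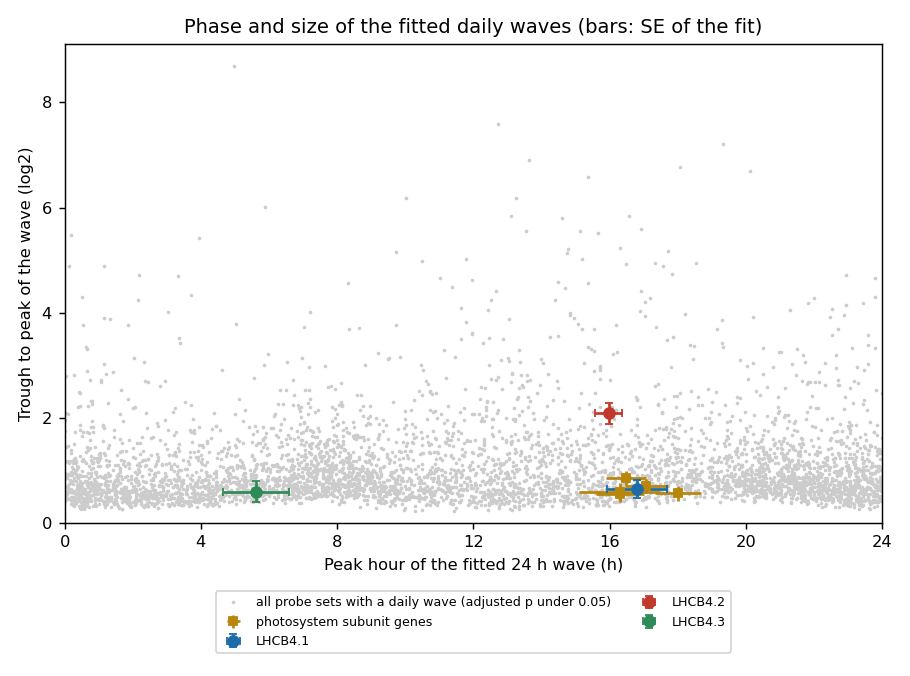
Peak hour (x axis, h) and size from trough to peak (y axis, log2) of the fitted 24 h wave for each LHCB4 gene and 5 photosystem genes. The photosystem genes are labelled as subunit genes, though PSB27 among them is an assembly factor. Bars give the SE, and grey points show all 4887 probe sets that passed the test of the wave. LHCB4.1 (16.8 h, 0.64) lies among the photosystem genes, LHCB4.2 (16.0 h, 2.08) above them at a like hour, and LHCB4.3 (5.61 h, 0.59) far to the left.

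Whether the copies changed differently was tested on the log2 ratio of 2 copies on the same array, for 3 pairs, with p-values adjusted over all probe sets set against the same copy. The ratio of LHCB4.2 over LHCB4.1 had its lowest hour mean at 4 h (-2.13 ± 0.08) and its highest at 16 h (-0.34 ± 0.15; log2, SD, n = 2 each). It lay between -2.19 and -0.91 on all 12 arrays of 0 to 8 h and 24 h, and between -0.66 and -0.23 on all 10 arrays of 12 to 20 h. LHCB4.2 thus rose over LHCB4.1 in the middle of the cycle in both series. These blocks of hours were set after the LHCB4.2 values were seen, so this is a description. The test of the hours gave a range of 1.79 (adjusted p = 7.09e-06, limma), the later part was higher by 0.67 ± 0.086 (SE; adjusted p = 2.55e-05) and the wave measured 1.46 ± 0.15 (SE; adjusted p = 7.84e-08). Set against LHCB4.1, 20.9% of all probe sets passed over the hours, 40.8% between the parts of the cycle and 67.1% for the wave.

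The ratio of LHCB4.3 over LHCB4.1 ran the opposite way. Its hour means lay between -2.15 ± 1.00 at 20 h and -0.68 ± 0.48 at 2 h (log2, SD, n = 2 each), and the arrays of 20 h stood apart, at -2.85 in series 1 and -1.44 in series 2. The later minus the earlier part was -0.60 ± 0.20 (SE; adjusted p = 0.0243, limma), and the wave measured 1.23 ± 0.32 with its peak at 5.19 h (adjusted p = 0.00435). Set against LHCB4.1, 5573 of 13647 probe sets passed between the parts, 5251 of them as lower, and 9155 passed for the wave. Passing these 2 tests is therefore no mark of LHCB4.3. The test of the hours did not pass (range 1.47, adjusted p = 0.152), but did with the replicate block (adjusted p = 0.000165) and without the 20 h array of series 2 (range 2.17, adjusted p = 0.0299). The call between the parts of the cycle was lost on leaving out the 13, 16, 20 or 24 h array of series 1 or the 2, 4 or 8 h array of series 2, and the difference lay between -0.74 and -0.46 over all 22 omissions. It was also lost without the 8 and 16 h arrays (-0.58, adjusted p = 0.0508).

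The widest split was between LHCB4.3 and LHCB4.2. The ratio of LHCB4.3 over LHCB4.2 averaged 1.36 ± 0.21 at 4 h and -1.60 ± 0.85 at 20 h (log2, SD, n = 2 each). It was higher on every array of 0 to 8 h and 24 h than on any array of 12 to 20 h. This too is a description, as these blocks were set after the LHCB4.2 values were seen. The range was 2.96 (adjusted p = 1.19e-06, limma), the later minus the earlier part was -1.27 ± 0.16 (SE; adjusted p = 9.64e-07) and the wave measured 2.63 ± 0.31 with its peak at 4.33 h (adjusted p = 9.55e-09). Set against LHCB4.2, nearly every probe set passed: 99.3% over the hours, 96.4% between the parts of the cycle and 99.0% for the wave. Passing is therefore no mark of LHCB4.3, and the direction and size of its ratio are given as values.

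**Figure D4:**
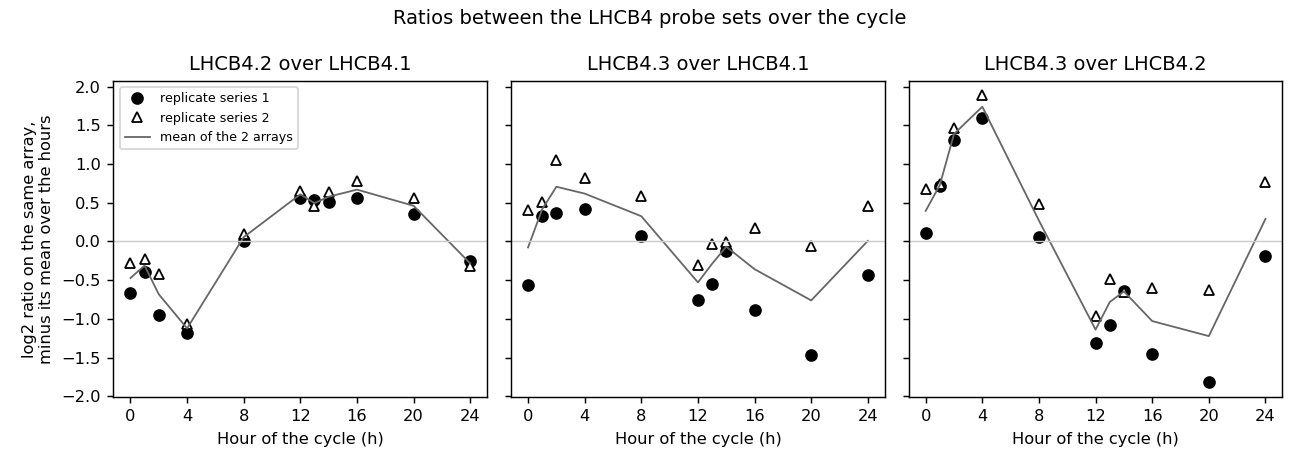
Log2 ratio of 2 LHCB4 probe sets on the same array, less its mean over the 11 hours (y axis), against the hour of the cycle (x axis), for 3 pairs, with filled circles for replicate series 1, open triangles for series 2 and a line through the means. LHCB4.2 over LHCB4.1 is lowest at 4 h and highest at 16 h with the series close together, LHCB4.3 over LHCB4.1 is low at 20 h with the series far apart, and LHCB4.3 over LHCB4.2 is highest at 4 h.

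Of 76 listed genes of the antenna and photosystem pathways, 9 had a probe set named for them alone and were tested, so the lists stand for few of their members. Over these 9, 5 were higher and 0 lower from 13 to 24 h than from 1 to 12 h, 3 passed over the hours and 7 had a daily wave. Of all probe sets tested, 10.8% were called higher, 13.1% lower, 26.8% over the hours and 35.8% for the wave, so the count over the hours is near the share among all probe sets. None of the 18 other listed LHCB and LHCA antenna genes had such a probe set, so the comparison is with photosystem genes.

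All 3 photosystem II genes tested, of 12 listed, were higher in the later part, with a median of 0.32 (log2), near LHCB4.1's 0.34, in a comparison where 10.8% of all probe sets tested were called higher and the median was -0.006. PSBY, a small subunit, was higher by 0.39 ± 0.10 and peaked at 17.1 h. PSBW, another small subunit that stabilises the complex, was higher by 0.32 ± 0.09 and peaked at 18.0 h. PSB27, an assembly factor, was higher by 0.28 ± 0.08 and peaked at 16.3 h. In photosystem I, with 2 of 12 listed genes tested, PSAN, a lumenal subunit, was higher by 0.47 ± 0.09 with its peak at 16.5 h. PSAE-1, a stromal subunit, had 0.33 ± 0.14 (SE; adjusted p = 0.0921, limma) and a peak at 16.3 h. These 5 photosystem genes each had a wave that passed, with a peak between 16.3 and 18.0 h. Of all probe sets tested, 35.8% had a wave that passed, with a peak at any hour. At its highest hour PSB27 had 2763 ± 609 and PSAE-1 4233 ± 1883 (SD, n = 2 each), the smallest and largest SD of these 5. Quantile normalization took the 0.34 of LHCB4.1 to 0.15, and its effect on these 5 genes was not examined. Whether they share a shift of bright probe sets between arrays was not tested.

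The other listed genes were less alike. HYH, a transcription factor of light signalling related to HY5, was higher in the later part by 0.60 ± 0.13 (log2, SE), though its mean intensity was 487 at 13 h and 20.0 at 20 h and its wave peaked at 11.6 h. Its 20 h mean (SD 13.2) and its lowest value of 10.7 lay inside the range of the bacterial controls, 0.1 to 29.2. LIL3:2, a protein of the antenna superfamily that holds enzymes of chlorophyll synthesis at the membrane, had a wave with its peak at 10.96 h. LIL3:1, its paralog, and NOL, an enzyme of chlorophyll b breakdown, passed none of the 3 tests.

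By Pearson's r over the 11 hour means, among 7284 named genes, LHCB4.1 ran most like PSAE-1 (0.969), PSAN (0.963), PSBY (0.943), GLR3.3 (0.921), a glutamate receptor-like channel, and AT5G19940 (0.921). LHCB4.2 ran most like AT2G42220 (0.974), AT5G19940 (0.972), TROL (0.971), which anchors ferredoxin-NADP reductase at the thylakoid, AT5G35970 (0.962) and AT3G13980 (0.959). LHCB4.3 ran most like AT1G69250 (0.921), AT5G05670 (0.892), IDH-VI (0.888), an isocitrate dehydrogenase, VPS24.1 (0.877), a membrane-sorting protein, and KINESIN-13A (0.869), a motor protein. For all 3 copies this order depends on averaging the 2 arrays of an hour. Over the 22 single arrays r with LHCB4.1 was 0.929 for PSAE-1, 0.915 for PSAN, 0.944 for PSBY, 0.716 for GLR3.3 and 0.846 for AT5G19940. With LHCB4.2 it was 0.9635 for AT2G42220, 0.946 for AT5G19940, 0.724 for TROL, 0.951 for AT5G35970 and 0.864 for AT3G13980. With LHCB4.3 it was 0.486 for AT1G69250, 0.426 for AT5G05670, 0.630 for IDH-VI, 0.838 for VPS24.1 and 0.777 for KINESIN-13A. Of the 5 genes nearest to LHCB4.1, 3 encode photosystem subunits, and the share of such genes among the 7284 was not counted. The curves share the same arrays, so these r values describe likeness in shape and carry no test. Likeness in shape was not likeness in size: the wave of AT5G35970 measured 4.57 and that of TROL 0.57, against 2.08 for LHCB4.2. Nor did each gene named here have a wave that passed. Those of VPS24.1 (0.38, adjusted p = 0.224, limma) and KINESIN-13A (0.31, adjusted p = 0.0565) did not, while those of AT1G69250, AT5G05670 and IDH-VI did.

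Among the copies themselves, r over the 11 hour means was 0.90 between LHCB4.2 and LHCB4.1, -0.80 between LHCB4.3 and LHCB4.1 and -0.78 between LHCB4.3 and LHCB4.2. Within series 1 these values were 0.84, -0.78 and -0.74, and within series 2 0.87, -0.57 and -0.72. The signs were the same in each series, with n = 11 hours and the arrays shared between the genes.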

How the data were processed

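Leaf RNA was measured on 22 ATH1 arrays, 2 per hour, grouped by the hour in the source names. The age tags give 5 h for both 8 h arrays and 14 h for both 16 h arrays. The series 2 titles give 8 and 16 h for these arrays, the same as the source names. The title of the 24 h array of series 2 also carries the word repeat, and it does not say what was repeated. The authors' deposited table holds linear intensity values, scaled so that on every array the mean is 100.0 once 2% is trimmed at either end. The scaling software is not stated in the labels. Of 22810 probe sets, 64 are controls, and the platform annotation names 1 gene for 13513, several for 503 and none for 8730. Symbols and coordinates are from RefSeq's TAIR10.1 gene table.

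A pseudocount of 4.01 (10% of the overall median, 40.1) was added to each intensity before taking log2, so that changes of dim probe sets are understated. The 13648 probe sets in the upper 60% by mean were tested. Tests were two-sided, with Benjamini-Hochberg adjustment over all tested, in limma 3.58.1 under R 4.3.3, by lmFit and by eBayes with its trend option. The fits were also run on simulated arrays with noise drawn independently for each array. That simulation held no shift shared by a replicate series, so it cannot tell how the fits behave under one. The hour fit held 11 means, and the wave fit a cosine and sine of 24 h. Ratios were taken by subtracting 1 copy's log2 value from every probe set. Named genes are the 3 copies, the pathway lists, the markers and the 5 genes most like each copy. Members and lists were chosen with earlier results of these data known.

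The replicate numbers come from the labels. Same-numbered arrays deviated together from the hour means: over 55 pairs of hours the correlation ran from 0.135 to 0.633 (median 0.403), so the block is given where it changes a call. With 2 arrays per hour, the number of arrays limits the precision. Nothing in the labels says whether the replicates were grown apart, so p-values measure the spread between these samples.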

Additional observations from a re-analysis of the deposited data

How the results depend on the processing

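Among 51 tested results, 1631 of 1689 values under the alternatives stayed on their side of the threshold, 51 lost their call, 7 gained one, and no called value changed sign; some small differences that passed nowhere did. The alternatives changed the pseudocount (none, or the median), the filter (none, or the upper 40%), or the scaling (quantile normalization, equal medians), or left out the 8 and 16 h arrays. Others used the replicate block, weights per array or no trend, or left out each array. The hours of the age tags and 2 harmonics were tried for the waves alone. Leaving out the 3 arrays of highest actin ratio was chosen after seeing the data. For LHCB4.2 the time course, the later against the earlier part, the wave and 12 h against 0 h kept their calls in each of these that was run for them, as did the ratios of LHCB4.2 over LHCB4.1 and of LHCB4.3 over LHCB4.2.

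The higher later part of the cycle of LHCB4.1 lost its call with no filter (0.34), equal medians (0.31), without the 8 and 16 h arrays (0.34) and without the high-actin arrays (0.40). The wave of LHCB4.3 lost its call with no filter (0.59), without a trend (0.59), without the 8 and 16 h arrays (0.70), with 2 harmonics (0.77) and without the high-actin arrays (0.59). LHCB4.2 at 24 h against 12 h lost its call without the high-actin arrays (-0.82), and LHCB4.3 over LHCB4.1 between the parts without the 8 and 16 h arrays (-0.58). LHCB4.2 at 2 h against 0 h gained one with quantile normalization (-0.67). The replicate block gained calls for the time course of LHCB4.1 (0.77) and LHCB4.3 (0.72), for the later against the earlier part of LHCB4.3 (-0.26) and for LHCB4.3 over LHCB4.1 over the hours (1.47), and it moved the probe sets called over the time course to 6055, against 3659. It changed no other call of these genes. Probe sets called between the parts were 2181 without the 8 and 16 h arrays, against 3272. Fewer arrays or more probe sets enter some of these fits; otherwise the cause was not tested.

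With each array left out, the ranges were 0.26 to 0.42 for LHCB4.1 between the parts, 0.68 to 1.17 for its time course, 0.44 to 0.69 for the wave of LHCB4.3, and -1.09 to -1.06 for LHCB4.2 at 4 h against 0 h. For LHCB4.3 over LHCB4.1 they were 1.23 to 2.17 over the hours and -0.74 to -0.46 between the parts. With 2 harmonics the peak hour moved to 19.6 for LHCB4.1, 19.1 for LHCB4.2 and 4.42 for LHCB4.3. The likeness of LHCB4.2 with AT2G42220 was 0.946 as Spearman's rho, and that of LHCB4.3 with AT1G69250 was 0.486 over the 22 arrays.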
